A study of Homo sapiens with 8 samples.

Results

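Cell adhesion and the position of a cell between epithelial and mesenchymal states were read here from 10 genes: the cadherins *CDH1*, *CDH2* and *CDH3*, the intermediate filament gene *VIM*, the transcription factors *ZEB1*, *ZEB2*, *SNAI2* and *GRHL2*, and the splicing regulators *ESRP1* and *ESRP2*. They were chosen by name from the 25702 genes that each count table lists and were matched to the tables by NCBI gene number. The data are RNA-seq of SUIT2, a human pancreatic ductal adenocarcinoma (PDA) cell line, transduced with pLKO.1 puro lentiviral shRNA constructs. Of the 8 libraries, 4 carry the label of a scramble control (shScr), 2 that of a first *EN1* shRNA (shEN1 #1) and 2 that of a second (shEN1 #2). All are from 1 line without a stated genotype, and all carry a lentiviral shRNA. No source used here says that libraries of a group came from separate cultures, so the p-values below measure only the spread between these libraries, which may be technical. The question asked of these genes is where SUIT2 lies between the epithelial and mesenchymal states and whether it lay elsewhere in the libraries labelled shEN1.

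Epithelial cells hold to each other through adherens junctions, in which E-cadherin, the product of *CDH1*, binds its like on the neighbouring cell and is tied to actin through catenins. In an epithelial-mesenchymal transition, zinc finger factors such as ZEB1, ZEB2 and SNAI2 bind E-box motifs and repress *CDH1* and other epithelial genes, N-cadherin (*CDH2*) and vimentin (*VIM*) rise, and the splicing regulators ESRP1 and ESRP2 are lost. GRHL2 is a transcription factor that keeps epithelial genes on and opposes *ZEB1*. In PDA, cells with both epithelial and mesenchymal features are well known, and P-cadherin (*CDH3*) is a cadherin that many pancreatic tumors express.

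The 8 libraries held between 33423590 and 37810604 counts in genes, a ratio of 1.13. Levels are given as CPM, counts scaled to a common library total with the trimmed mean of M values (TMM), whose factors lay between 0.962 and 1.07. Over the 14333 genes that passed a filter on low counts, the library labelled shScr replicate 4 and that labelled shEN1 #2 replicate 1 were the closest pair, with a root mean square difference of 0.395 in log2 CPM. They lay between 0.736 and 0.841 from each of the other 6 libraries, although they carry different labels. *EN1*, the targeted gene, stood at 4.10, 4.50, 4.94 and 2.51 CPM in shScr replicates 1 to 4, at 5.77 and 5.41 CPM in those labelled shEN1 #1 and at 1.35 and 6.70 CPM in those labelled shEN1 #2. Of the libraries labelled shEN1, 3 exceeded the mean of shScr, 4.01 ± 1.06 CPM (SD, n = 4), so the level of the target goes against the labels and every direction below is one between labels. The 5 ductal epithelial markers examined summed to between 11340 and 18290 CPM in every library, led by the keratin *KRT8*, so RNA of these markers was abundant. Of 9 fibroblast markers, 5 were at 0 in every library (*COL1A2*, *COL3A1*, *DCN*, *LUM* and *THY1*), and the list summed to between 1.33 and 4.28 CPM in shScr and between 1.17 and 2.86 CPM in shEN1. The 6 endothelial markers reached at most 0.965 CPM together, with *CDH5*, *KDR* and *TEK* at 0. Of 9 immune markers, *PTPRC*, *CD3E*, *CD3D* and *MS4A1* were at 0 and the list lay between 8.97 and 36.4 CPM, most of it *CD68*. The 8 acinar and endocrine markers summed to at most 1.41 CPM, with 5 at 0. The 5 neural markers summed to at most 66.8 CPM, most of it the tubulin gene *TUBB3*, which lay at 49.2 CPM on average.

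All 10 genes had reads in these data, at mean levels per kilobase of transcript that ran from 0.0272 to 703.5 CPM. *VIM* was the most abundant, *CDH1*, *ESRP1*, *ESRP2* and *GRHL2* followed together, *SNAI2*, *ZEB1* and *CDH3* were low, and *CDH2* and *ZEB2* were near 0. SUIT2 libraries thus held the RNA of E-cadherin, of both ESRP factors and of GRHL2 together with abundant vimentin RNA, and almost no RNA of N-cadherin or ZEB2.

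**Figure D1:**
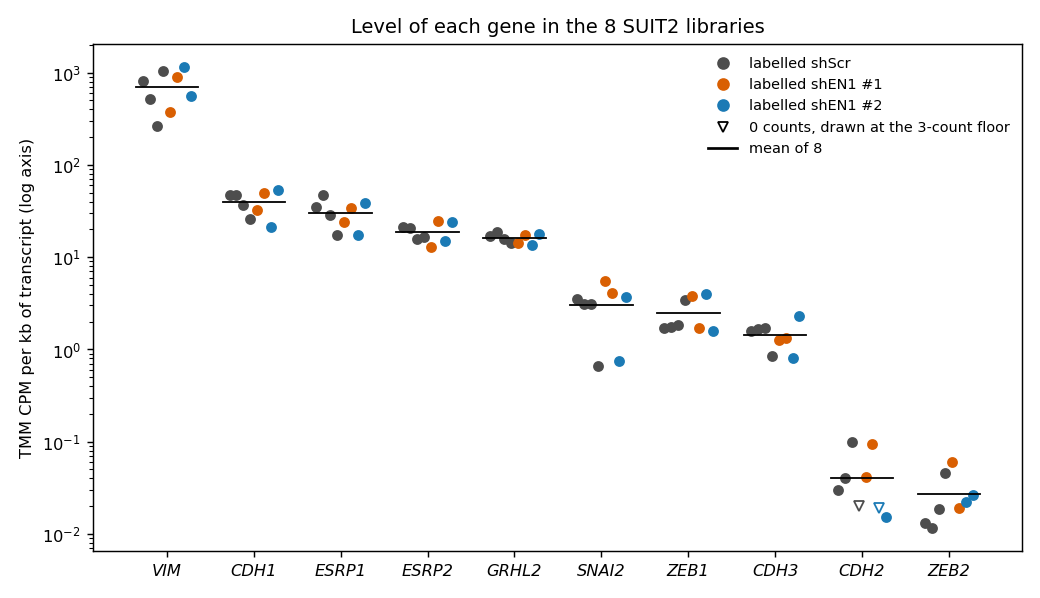
Level of each of the 10 genes, as TMM CPM per kilobase of the canonical transcript on a log axis, with 1 point per library (grey, labelled shScr; orange, shEN1 #1; blue, shEN1 #2) and a line at the mean of 8. *VIM* lies alone at the top, between 267 and 1152 CPM per kilobase, and *CDH2* and *ZEB2* lie at or below 0.100 CPM per kilobase, with the 2 libraries of 0 *CDH2* counts drawn as open triangles at the level that 3 counts give.

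*CDH1* (gene number 999; GRCh37 chromosome 16, 68771195 to 68869440, plus strand), the gene of E-cadherin, was well expressed in every library. Its level was 230.0, 225, 178 and 124 CPM in shScr replicates 1 to 4, 157 and 241 CPM in shEN1 #1, and 103 and 256 CPM in shEN1 #2. The lowest values were those of shEN1 #2 replicate 1 and shScr replicate 4, and the labels overlapped throughout. Averaged by label, it was 189 ± 49.3 CPM in shScr and 189 ± 72.4 CPM in shEN1 (SD, n = 4 each). The highest library held 2.49 times the level of the lowest.

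*CDH3* (gene number 1001; chromosome 16, 68670092 to 68761371, plus strand), the gene of P-cadherin, lies 9823 bases from *CDH1* and was far lower. It reached 7.14, 7.36, 7.69 and 3.76 CPM in shScr replicates 1 to 4, 5.57 and 5.91 CPM in shEN1 #1, and 3.63 and 10.3 CPM in shEN1 #2. As for *CDH1*, shScr replicate 4 and shEN1 #2 replicate 1 were the lowest and shEN1 #2 replicate 2 the highest. Per kilobase of transcript, the level of *CDH1* was between 21.4 and 37.8 times that of *CDH3* within a library. The libraries labelled shScr lay between 21.4 and 30.5 and those labelled shEN1 between 23.1 and 37.8.

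*CDH2* (gene number 1000; chromosome 18, 25512843 to 25757910, minus strand), the gene of N-cadherin, was almost without reads. The shScr libraries held 4, 6, 14 and 0 counts, those labelled shEN1 #1 held 6 and 13, and those labelled shEN1 #2 held 0 and 2. A count of 0 allows up to 0.080 CPM in shScr replicate 4 and 0.0762 CPM in shEN1 #2 replicate 1, by counting error alone. Over all libraries there were 45 *CDH2* counts against 52996 *CDH1* counts, and the mean level of *CDH1* per kilobase was 975 times that of *CDH2*. The libraries with the most *VIM* and the least *CDH1*, shScr replicate 4 and shEN1 #2 replicate 1, were the 2 with no *CDH2* count.

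The other cadherin genes examined, most of them classical cadherins, were nearly silent. Of these 17 genes, 10 had no count in any library, and 1, *CDH24*, averaged at least 1 CPM. *CDH24*, which encodes a type II cadherin, lay between 11.7 and 28.5 CPM, with its lowest values in shScr replicate 4 and shEN1 #2 replicate 1. The next highest by level per kilobase were *CDH15* at 0.313 CPM, the brain cadherin *CDH4* at 0.246 CPM and *CDH26* at 0.131 CPM on average. *CDH5*, the cadherin of endothelium, and *CDH11*, that of fibroblasts and osteoblasts, were at 0 throughout, so the classical cadherin RNA of these cells was mainly *CDH1*.

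Most genes on a list of cadherin adhesion partners, which holds catenins, actin linkers and nectins, were expressed. Of 14 such genes, 12 passed the filter and these 12 averaged at least 10 CPM, with a median SD of log2 CPM of 0.20 against 0.26 for all genes tested. *CTNNA2*, the alpha catenin gene of neurons, was at 0 in every library and the nectin gene *NECTIN4* was near 0. The alpha catenin gene *CTNNA1* had the highest level per kilobase, lay between 541 and 597 CPM. The actin linker gene *VCL* lay between 523 and 775 CPM, the beta catenin gene *CTNNB1* between 362 and 433 CPM, and the alpha catenin-like gene *CTNNAL1* between 135 and 196 CPM. The widest spread was that of the nectin gene *NECTIN1*, between 54.9 and 197 CPM, and of *JUP*, the gene of plakoglobin, between 76.8 and 177 CPM. For both, shScr replicate 4 and shEN1 #2 replicate 1 were the lowest, which was so for 5 of the 12 genes (41.7%) against 19.2% of all genes tested.

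*VIM* (gene number 7431; chromosome 10, 17270240 to 17279592, plus strand) encodes vimentin, the intermediate filament of mesenchymal cells. Its level was 1759, 1123, 575 and 2241 CPM in shScr replicates 1 to 4, 809 and 1917 CPM in shEN1 #1, and 2482 and 1217 CPM in shEN1 #2. It was highest in shEN1 #2 replicate 1 and shScr replicate 4 and lowest in shScr replicate 3, and the 2 labels spanned nearly the same range. Per kilobase its mean level ranked 92 among the 13396 tested genes with a transcript length. *VIM* RNA varied 4.32-fold between libraries, with an SD of log2 CPM of 0.74, above that of 89.3% of the genes tested. The antisense gene *VIM-AS1* held between 1.39 and 3.28 CPM, and since the library preparation described does not mark the strand, reads shared with it cannot be told apart from those of *VIM*.

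*ZEB1* (gene number 6935; chromosome 10, 31607424 to 31818742, plus strand), a zinc finger repressor of epithelial genes, was low but measured in every library. It stood at 10.1, 10.4, 11.0 and 20.2 CPM in shScr replicates 1 to 4, at 22.3 and 10.3 CPM in shEN1 #1, and at 23.6 and 9.40 CPM in shEN1 #2. The values fell into 2 ranges: 5 libraries lay between 9.40 and 11.0 CPM and 3, shScr replicate 4 and replicate 1 of both constructs, between 20.2 and 23.6 CPM. Each label had libraries in both ranges. *ZEB1-AS1*, the neighbouring antisense gene, lay between 4.62 and 7.92 CPM.

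ZEB1 and its relatives act on promoters through E-boxes. RefSeq promoters were therefore searched for the E-box CACCTG on both strands (CAGGTG on the strand shown), the motif of the ZEB and SNAI factors. Each promoter ran from 250 bases before to 50 after a transcription start (GRCh38.p14), and a gene can have several. A promoter was found for 4 of the 10 genes, *CDH2*, *VIM*, *ZEB1* and *ZEB2*. None was found for *CDH1*, *CDH3*, *ESRP1*, *ESRP2*, *GRHL2* or *SNAI2*. The search thus does not bear on the repression of *CDH1* or of the other epithelial genes among the 10. Of all 35116 promoters, 20.6% held the motif. It occurred in 2 of the 7 promoters of *ZEB1* and in none of those of *VIM*, *ZEB2* and *CDH2*. The promoter of *VIM* is shown because this gene was the most abundant (chr10:17227991-17228290, plus strand, no E-box). The third promoter of *ZEB1* is shown because it held the motif 3 times (chr10:31318966-31319265, plus strand, E-boxes in capitals). Its E-boxes start at -242, -85 and 34 from the transcription start of that promoter. Both sequences read as follows.
VIM: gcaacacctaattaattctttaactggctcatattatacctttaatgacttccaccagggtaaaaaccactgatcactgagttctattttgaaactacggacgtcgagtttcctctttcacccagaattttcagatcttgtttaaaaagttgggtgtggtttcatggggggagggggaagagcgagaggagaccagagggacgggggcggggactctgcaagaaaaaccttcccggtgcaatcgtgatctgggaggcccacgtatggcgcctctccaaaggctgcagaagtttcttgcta
ZEB1: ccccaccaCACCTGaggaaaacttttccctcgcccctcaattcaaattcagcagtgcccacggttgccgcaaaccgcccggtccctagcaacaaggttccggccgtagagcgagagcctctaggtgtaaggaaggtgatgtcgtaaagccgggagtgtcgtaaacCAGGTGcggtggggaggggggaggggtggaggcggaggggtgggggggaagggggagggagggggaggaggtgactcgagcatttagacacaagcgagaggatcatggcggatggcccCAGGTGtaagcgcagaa
A match describes these letters and is not a measured binding site, and the lack of one says only that the letters are not in this window.

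*ZEB2* (gene number 9839; chromosome 2, 145121931 to 145278624, minus strand), the paralog of *ZEB1*, was close to absent, with 4, 4, 6 and 16 counts in shScr replicates 1 to 4, 20 and 6 in shEN1 #1 and 8 and 8 in shEN1 #2. Its highest values, 0.560 and 0.427 CPM, were those of shEN1 #1 replicate 1 and shScr replicate 4, both in the higher range of *ZEB1*. The library highest in *ZEB1*, shEN1 #2 replicate 1, held 8 counts, as did shEN1 #2 replicate 2, which was lowest in *ZEB1*. Over all libraries the mean level of *ZEB1* per kilobase was 90.9 times that of *ZEB2*.

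*SNAI2* (gene number 6591; chromosome 8, 49830157 to 49834299, minus strand), which encodes the repressor Slug, varied most of the 10 genes among those tested. Its level was 7.62, 6.85, 6.80 and 1.44 CPM in shScr replicates 1 to 4, 12.2 and 8.86 CPM in shEN1 #1, and 1.63 and 8.11 CPM in shEN1 #2. The libraries shScr replicate 4 and shEN1 #2 replicate 1 were far below the rest, which lay between 6.80 and 12.2 CPM. Its SD of log2 CPM was 1.14, above that of 96.4% of genes tested, and its highest library held 8.43 times the level of its lowest. *SNAI2* was thus lowest in the libraries in which *CDH1* was also lowest and *VIM* highest, and *ZEB1* did not follow it: per kilobase, *ZEB1* was at 5.15 and 5.32 times the level of *SNAI2* in those 2 libraries and at 0.426 to 0.674 times in the other 6.

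*ESRP1* (gene number 54845; chromosome 8, 95653302 to 95719694, plus strand), which encodes an RNA-binding protein that directs epithelial splicing, was expressed throughout. It lay at 131, 179.9, 109 and 66.4 CPM in shScr replicates 1 to 4, at 91.4 and 129 CPM in shEN1 #1, and at 65.3 and 147 CPM in shEN1 #2. Again shEN1 #2 replicate 1 and shScr replicate 4 were the lowest. *ESRP2* (gene number 80004; chromosome 16, 68262936 to 68272005, minus strand), its paralog, lies 398086 bases from *CDH3* and stood at 72.5, 70.2, 54.2 and 57.4 CPM in shScr, at 44.03 and 84.5 CPM in shEN1 #1, and at 51.3 and 81.8 CPM in shEN1 #2. Its lowest library was shEN1 #1 replicate 1, so its order of libraries differed from that of *ESRP1*. Per kilobase, *ESRP1* was at 1.05 to 2.33 times the level of *ESRP2*, above it in every library, with the smallest ratios in shScr replicate 4 (1.05) and shEN1 #2 replicate 1 (1.16). Counts per gene do not resolve isoforms, so the splicing that these factors direct was not measured.

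*GRHL2* (gene number 79977; chromosome 8, 102504667 to 102681954, plus strand) was the steadiest of the 10 genes. Its level was 88.7, 97.4, 81.6 and 75.2 CPM in shScr replicates 1 to 4, 74.8 and 91.2 CPM in shEN1 #1, and 71.8 and 92.5 CPM in shEN1 #2. The labels overlapped, and the highest library was 1.36 times the lowest. The SD of its log2 CPM was 0.17, above that of 21.3% of genes tested, against a median of 0.52 for the 8 of the 10 genes that were tested and 0.26 for all genes tested.

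**Figure D2:**
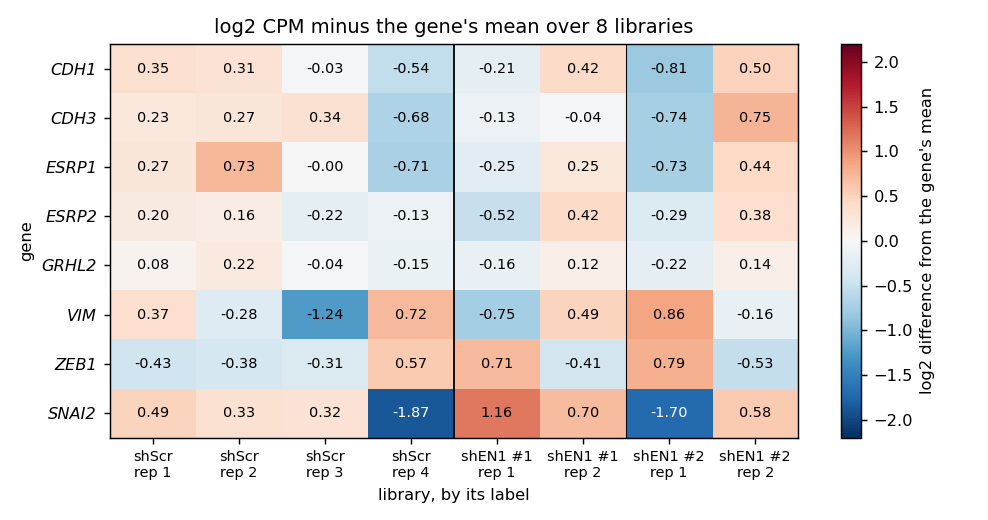
Deviation of each tested gene in each library from its own mean over 8 libraries, in log2 CPM (red, above; blue, below; the number in each cell is the deviation), with the libraries ordered by label. The columns of shScr replicate 4 and shEN1 #2 replicate 1 match, with *SNAI2* at -1.87 and -1.70 and *VIM* at 0.72 and 0.86, while *GRHL2* stays between -0.22 and 0.22.

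The order of mean levels per kilobase was *VIM*, *CDH1*, *ESRP1*, *ESRP2*, *GRHL2*, *SNAI2*, *ZEB1*, *CDH3*, *CDH2* and *ZEB2*. Between *VIM* and *CDH1*, between *GRHL2* and *SNAI2* and between *CDH3* and *CDH2*, the ranges of the 8 libraries did not overlap. The other neighbours overlapped, although *CDH1* was above *ESRP1* in 7 of 8 libraries, *ESRP1* above *ESRP2* in 8, *ESRP2* above *GRHL2* in 7, *SNAI2* above *ZEB1* in 6 and *ZEB1* above *CDH3* in 7. The order of *ESRP2* and *GRHL2* depended on the length used. With the union of all exons as the length, mean levels per kilobase were 12.4 for *ESRP2* and 13.9 for *GRHL2*. *CDH2* was above *ZEB2* in 4 of 8 libraries and the order of these 2 was not resolved at this depth. Mean levels per kilobase were 703.5 ± 319 for *VIM*, 39.3 ± 11.9 for *CDH1*, 30.5 ± 10.6 for *ESRP1*, 18.8 ± 4.33 for *ESRP2* and 16.1 ± 1.83 for *GRHL2* (SD, n = 8). Those of *SNAI2*, *ZEB1* and *CDH3* were 3.07 ± 1.65, 2.47 ± 1.04 and 1.44 ± 0.492 CPM per kilobase (SD, n = 8). *CDH1* lay above 85.2%, *ESRP1* above 81.1%, *ESRP2* above 71.8% and *GRHL2* above 68.4% of tested genes by level per kilobase, whereas *SNAI2*, *ZEB1* and *CDH3* lay above 31.6%, 27.96% and 20.7%.

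Ratios within a library do not depend on its depth. Per kilobase, *VIM* stood at 17.1, 11.2, 7.24 and 40.3 times the level of *CDH1* in shScr replicates 1 to 4, at 11.5 and 17.7 times in shEN1 #1 and at 53.8 and 10.6 times in shEN1 #2. The ratio was above 1 in every library and varied 7.44-fold, with shEN1 #2 replicate 1 and shScr replicate 4 at the top. Its median over the libraries was 14.3, and 7.52 when the union of all exons was taken as the length of a gene. The ratio of *ESRP1* to *ZEB1* per kilobase was 20.5, 27.2, 15.6 and 5.17 in shScr, 6.46 and 19.9 in shEN1 #1 and 4.37 and 24.7 in shEN1 #2, and that of *CDH1* to *ZEB1* lay between 5.39 and 33.7. By both ratios the RNA of the epithelial gene was above that of the repressor in all 8 libraries. It was so by the least in shEN1 #2 replicate 1, shScr replicate 4 and shEN1 #1 replicate 1. These data hold no reference epithelial or mesenchymal line, so a ratio above 1, also that of *VIM* to *CDH1*, places SUIT2 on neither side. *CDH1* and *ESRP1* kept nearly the same ratio, between 0.979 and 1.46. In these bulk libraries, a smaller share of cells with an epithelial RNA and less of that RNA in each cell cannot be told apart.

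**Figure D3:**
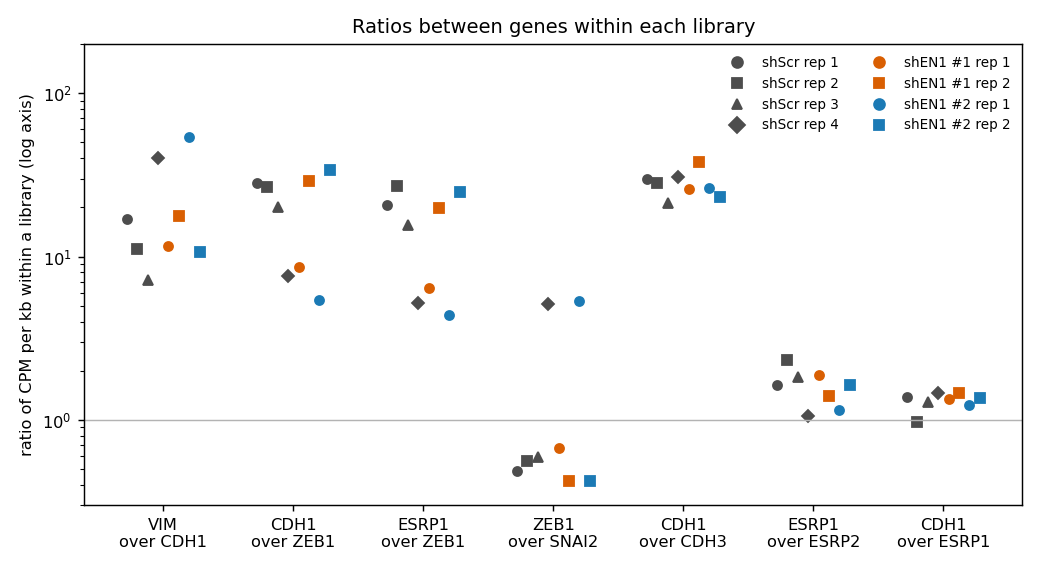
Ratios of CPM per kilobase between pairs of the genes within each library, on a log axis, with colour for the label and shape for the replicate. *VIM* over *CDH1* is highest and *CDH1* and *ESRP1* over *ZEB1* are lowest in shEN1 #2 replicate 1, *ZEB1* over *SNAI2* exceeds 1 in 2 libraries, and *CDH1* over *ESRP1* stays between 0.979 and 1.46.

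A wider list of epithelial genes was expressed nearly as a whole. Of 36 epithelial genes, 34 averaged at least 1 CPM, 27 at least 10 CPM and 13 at least 100 CPM, and none was at 0 in every library. The paired keratins of simple epithelia led, with *KRT8* between 6094 and 9573 CPM and *KRT18* between 3586 and 5628 CPM. The ductal keratins *KRT19* and *KRT7* lay between 321 and 1648 CPM and between 192 and 1080.0 CPM. The tight junction gene *CLDN7* varied most on this list, at 120.1, 121, 77.0 and 25.8 CPM in shScr replicates 1 to 4, at 61.6 and 112 CPM in shEN1 #1 and at 18.1 and 149 CPM in shEN1 #2. For *CLDN7*, *KRT7* and *KRT19*, as for *CDH1*, shEN1 #2 replicate 1 and shScr replicate 4 were the lowest. These were the 2 lowest libraries for 23 of the 34 tested genes of the list (67.6%), against 19.2% of all genes tested. They were also the 2 lowest for 4 of the 8 tested genes described above (50%). These 4 were *CDH1*, *CDH3*, *ESRP1* and *SNAI2*, the last of which encodes a repressor of epithelial genes. The epithelial regulators *ESRP2* and *GRHL2* were not among them.

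The mesenchymal list was divided. Of 42 genes, 26 averaged at least 1 CPM, 17 at least 10 CPM and 10 at least 100 CPM, and 8 had no count in any library. The 8 at 0 were the transcription factor genes *TWIST1*, *TWIST2* and *PRRX1*, the collagen genes *COL1A2* and *COL3A1*, the protease gene *MMP2*, the matrix gene *POSTN* and the surface antigen gene *THY1*. *SNAI1*, the paralog of *SNAI2*, averaged 0.579 CPM, and the fibronectin gene *FN1* 1.03 CPM. At the other end, by level per kilobase, were the tropomyosin genes *TPM2* (222 to 295 CPM) and *TPM1* (156 to 385 CPM), the hyaluronan receptor gene *CD44* (585 to 1039 CPM) and *TGFBI*, a matrix gene induced by TGF-beta (82.2 to 370.3 CPM). They did not move as one: *TPM1* was highest in shEN1 #2 replicate 1 and shScr replicate 4, at 385 and 357 CPM, where *TGFBI*, at 83.6 and 82.2 CPM, and *CD44*, at 635 and 585 CPM, were lowest. Among the widest spreads on the list was that of the collagen gene *COL5A1* (0.0539 to 1.93 CPM), at a level of few counts. Of the 29 tested genes of the list, shScr replicate 4 and shEN1 #2 replicate 1 were the 2 highest libraries for 12 (41.4%) and the 2 lowest for 7 (24.1%), against 18.9% and 19.2% of all genes tested. The part of these 2 libraries in the spread of each list is a description, since they were picked out by their distance over all genes.

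The genes most like *SNAI2*, *VIM* and *ZEB1* in their pattern over the 8 libraries were found by the root mean square difference of centred log2 CPM over all genes tested. For *SNAI2* these were *SPOCD1*, *TRBC2* and *PKIB*, at differences of 0.227, 0.227 and 0.229. For *VIM* they were *KLF2*, *NCEH1* and *PRDM8*, at 0.164, 0.176 and 0.200. For *ZEB1* they were *VLDLR*, *LIFR* and *GAB3*, at 0.184, 0.188 and 0.199. *NCEH1* had the highest level of these, between 124 and 657 CPM, and *GAB3* the lowest, between 0.891 and 3.20 CPM. The libraries share their depth and their split into a pair and the rest, so a small difference describes these 8 libraries only.

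None of the 10 genes was called between the labels. In edgeR's quasi-likelihood test of the 4 libraries labelled shEN1 against the 4 labelled shScr, 8 of the 10 genes passed the filter on low counts and 0 of the 8 had a Benjamini-Hochberg adjusted p below 0.05. The background was the same: 0 of 14333 genes, 0%, were called. An unadjusted p below 0.05 was found for 44 (0.307%), none of them among the 10 genes. DESeq2 called 2 genes, neither of them among the 10. A share of 0.307% lies below the fraction of 0.05, or 1 in 20 genes, given where no gene differs. The lack of calls thus does not show these genes unchanged. In shScr replicates 1 and 2 and replicate 2 of both constructs, chosen after seeing the data, 1512 of 14273 genes had an unadjusted p below 0.05 in edgeR's test. Of these 14273 genes, 1 was called, *VAMP7*, and none of the 10 genes was. The libraries kept are the closest pair within each label, at 0.556 in shScr and 0.495 in shEN1. That choice lowers the spread within a label, so the 1512 does not measure a difference between the labels. *CDH2* and *ZEB2* did not pass the filter. For none of the 10 genes were the 2 labels without overlap, against 0.419% of the genes tested. Of the 8 tested, 5 had a positive log2 fold change (shEN1 minus shScr) and 3 a negative one, with a median of 0.02 against -0.0028 over all genes tested.

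The largest fitted changes were those of *SNAI2* (log2 fold change 0.44, SE 0.61, 95% interval -0.93 to 1.80, n = 4 and 4) and *ZEB1* (0.34, SE 0.36, interval -0.45 to 1.14). *VIM* was at 0.17 (SE 0.44, interval -0.83 to 1.17) and *ESRP1* at -0.16 (SE 0.32, interval -0.89 to 0.56). *CDH1* was at 0.0013 (SE 0.30, interval -0.66 to 0.66), so a change of up to 0.66 in either direction on the log2 scale was within its interval. *CDH3* was at -0.033 (SE 0.33) and *ESRP2* at 0.041 (SE 0.22). The narrowest interval was that of *GRHL2*, at -0.054 (SE 0.13, interval -0.34 to 0.23). The adjusted p was 1 for each of the 8 and the lowest unadjusted p among them was 0.358, for *ZEB1*. Without shScr replicate 4 and shEN1 #2 replicate 1, an alternative chosen after seeing the data, the log2 fold changes were 0.45 for *SNAI2*, 0.41 for *ZEB1*, 0.19 for *VIM*, 0.05 for *CDH1* and -0.19 for *ESRP1*, and 0 of the 8 were called. Without shEN1 #2 replicate 1 alone, *VIM* was at -0.12, and without shScr replicate 4 alone it was at 0.48. *SNAI2* was at 0.12 without shScr replicate 4, at 0.12 without shEN1 #1 replicate 1 and at 0.77 without shEN1 #2 replicate 1.

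**Figure D4:**
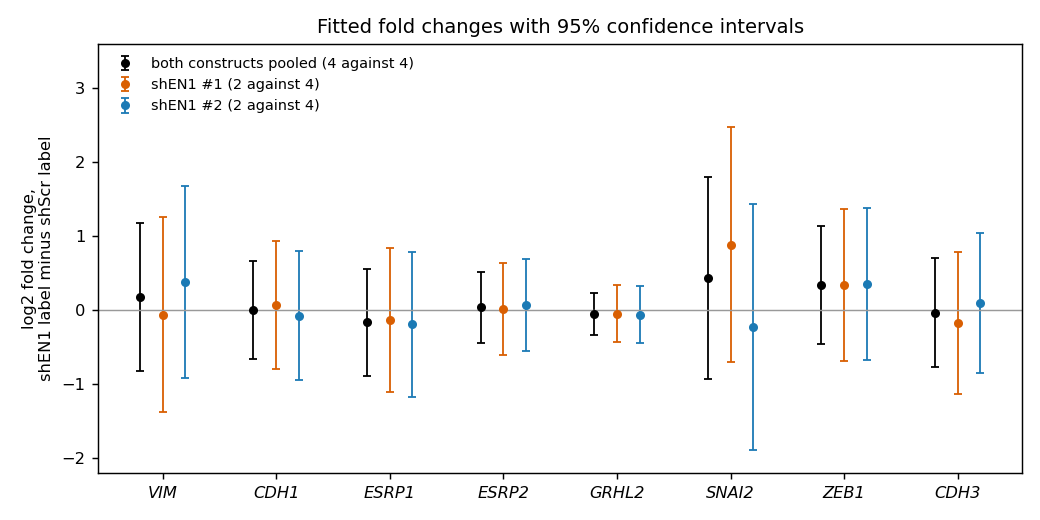
Fitted log2 fold changes of the 8 tested genes, shEN1 label minus shScr label, with 95% confidence intervals from edgeR's quasi-likelihood fit, for both constructs pooled (black) and for each construct (orange and blue). Every interval spans 0, and that of *GRHL2* is the narrowest.

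Taken by construct, in a fit of 3 groups over 15129 genes, 0 of the 10 genes were called for shEN1 #1 or for shEN1 #2 against shScr, where 0% of all genes were called in both comparisons and 0.674% and 0.390% had an unadjusted p below 0.05. Both comparisons share the shScr libraries. *SNAI2* was at 0.89 (SE 0.70) in log2 fold change for shEN1 #1 and at -0.23 (SE 0.73) for shEN1 #2, and the difference between the constructs was -1.11 (SE 0.84, unadjusted p = 0.218 and adjusted p = 1.00 in edgeR's test). *VIM* was at -0.063 (SE 0.57) and 0.38 (SE 0.56), and its difference between the constructs was 0.44 (SE 0.66). *ZEB1* was at 0.33 (SE 0.45) and 0.35 (SE 0.45), each with 1 high library. Its levels were 22.3 and 10.3 CPM in shEN1 #1 and 23.6 and 9.40 CPM in shEN1 #2. In shScr, replicate 4 was at 20.2 CPM and the others lay between 10.1 and 11.0 CPM. Over all genes tested, the 2 libraries labelled shEN1 #2 differed by 0.813 and those labelled shEN1 #1 by 0.621 (root mean square of log2 CPM), where the most distant of all pairs of libraries differed by 0.841. *SNAI2* stood at 1.63 and 8.11 CPM and *CDH1* at 103 and 256 CPM in the libraries of shEN1 #2. In those of shEN1 #1, *VIM* stood at 809 and 1917 CPM, while *CDH3* was at 5.57 and 5.91 CPM and *SNAI2* at 12.2 and 8.86 CPM.

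No gene of the 4 lists was called between the labels either, with 0 genes called by edgeR and 0 at an unadjusted p below 0.05 on each. Of the epithelial list, 12 of 34 tested genes had a positive and 22 a negative log2 fold change, with a median of -0.029. The mesenchymal list had 20 positive and 9 negative of 29 tested, with a median of 0.044, and the partners of cadherins 9 positive and 3 negative of 12, with a median of 0.022. Of all genes tested, 48.9% were positive. Genes of a list were read in the same libraries and are not independent, so these counts are a description. Whether a list as a whole shifted between the labels was not tested. The closest pair of libraries, which carry different labels, were both highest or both lowest for 70.6% of the tested epithelial genes. That share was 65.5% on the mesenchymal list and 41.7% among the partners, against 38.1% of all genes tested. The log2 fold changes of single genes ranged from -0.43 to 0.14 on the epithelial list, from -0.35 to 0.55 on the mesenchymal list and from -0.049 to 0.20 among the partners.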

How the data were processed

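RNA was sequenced from 8 SUIT2 libraries, grouped by their labels (4 shScr, 2 shEN1 #1, 2 shEN1 #2). The deposited values are raw read counts by gene number, as whole numbers without scaling. The submitters' notes name HISAT2 and featureCounts, and the study's methods give paired-end reads, polyT selection and alignment to hg19. The labels name a mouse build, which the human gene numbers in the tables go against. Annotation, strand setting and versions are not given in the sources used here. Of 25702 gene numbers, 23696 were matched to symbols through RefSeq, and the others held at most 0.257% of a library's counts. Positions and canonical transcript lengths come from GENCODE lifted to GRCh37 (another name for the hg19 build).

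Counts were filtered with filterByExpr (minimum count 10), scaled with TMM and tested with edgeR 4.0.16 (robust quasi-likelihood) in R 4.3.3, tested on simulated data, with an adjusted p below 0.05 as the threshold and DESeq2 1.42.0 as an alternative. Log2 CPM used a prior count of 2, and intervals are at 95%. The other alternatives were other scalings and filters, a replicate block, fits with libraries left out, and union exon length.

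Genes were named by a rule: *EN1*, the 10 genes, on each list the 4 with the highest level per kilobase, the 2 with the largest SD of log2 CPM and any called, and the 3 genes most like each of the 3 most variable of the 10. *SNAI1*, *FN1*, *NECTIN4*, *CDH5*, *CDH11* and the genes at 0 were named after their values were seen. 1 gene that the rule names is not reported here. The 10 genes, the lists and the tests were chosen with earlier results of these data known.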

Additional observations from a re-analysis of the deposited data

Results flagged for a closer look

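In 5 of 32 sets of 4 libraries, 1 library lay apart by Dixon's test, where chance gives about 1 in 20. The sets share their libraries, and the ratios among them are built from the same values as the levels. They are thus not independent, and 5 of 32 does not measure an excess over chance. Among the libraries labelled shScr, replicate 4 was apart in *CDH3* (3.76 CPM), *ZEB1* (20.2 CPM) and *SNAI2* (1.44 CPM). Among those labelled shEN1, #2 replicate 1 was apart in its TMM factor (1.07) and in the ratio of *VIM* to *CDH1* per kilobase (53.8). These are the 2 libraries that lie closest to each other over all genes tested.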

How the results depend on the processing

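None of the 10 genes was called in any of the fits run. For shEN1 against shScr, 0 genes were called by edgeR and 2 by DESeq2 (*VAMP7* and 1 gene number without a symbol), with 1, *VAMP7*, under a replicate block, without shScr replicate 4 and shEN1 #2 replicate 1, and in the 4 libraries shScr replicates 1 and 2 and replicate 2 of both constructs. Leaving out each library gave 0 to 1 genes (1 without shScr replicate 4), and 0 to 1 for each construct. Where this left a construct with 1 library, that library was assumed to vary like the others. For shEN1 #1, DESeq2 called 4 genes and a fit of the 6 libraries compared called 1. Some directions turned: *CDH1* was at -0.0014 with upper-quartile scaling and -0.0044 by library size only, and *CDH3* was at 0.15 and *ZEB1* at -0.061 in the 4 libraries. With 1 library left out, the log2 fold change ranged from -0.18 to 0.20 for *CDH1*, -0.37 to 0.15 for *CDH3*, -0.12 to 0.48 for *VIM*, -0.37 to 0.087 for *ESRP1*, -0.11 to 0.19 for *ESRP2*, -0.11 to 0.014 for *GRHL2*, 0.12 to 0.64 for *ZEB1* and 0.12 to 0.77 for *SNAI2*. The cause was not tested. The replicate numbers share no stated origin, and the deviations of same-numbered libraries correlated in both pairs of replicate 2 (r of 0.19 and 0.32) but not in those of replicate 1 (0.0089 and -0.38), so the numbers were not taken as a pairing. With the block, in the 6 libraries that share a number, the log2 fold change was -0.37 for *CDH1*, -0.26 for *CDH3*, -0.56 for *ESRP1*, -0.20 for *ESRP2*, -0.18 for *GRHL2*, 0.074 for *SNAI2*, 0.18 for *VIM* and 0.51 for *ZEB1*. Mean CPM over the libraries scaled by library size only stayed within 1 SD for all 10 genes. For *CDH2* and *ZEB2*, totals of 45 and 72 counts limit what can be said.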
